A study of Spinacia oleracea with 12 samples.

Results

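Leaves of a high-oxalate and a low-oxalate spinach were compared by RNA sequencing: PI175311, a USDA accession labelled high oxalate, against Bloomsdale, a cultivar labelled low oxalate. All plants were 6 weeks old and came from a growth chamber at 23 °C with 12 h of light. The labels give a fertilizer mix held at 200 ppm of nitrogen for both genotypes, while the methods of the study describe a nitrogen-free solution, and which applied was not settled here. Each genotype had 3 leaf and 3 root libraries, the labels speak of independent plants, and each genotype is 1 accession or cultivar, so oxalate content and every other difference between the pair cannot be told apart. A gene was included when it had at least 1 FPKM (fragments scaled to gene length and to the library total) in 3 or more of the 6 leaf libraries. This took in 16764 of the 25495 genes of the table. Another 5709 genes were above 0 in some leaf library without passing, and 3022 were at 0 in all 6.

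Oxalate is the end product of several leaf pathways. In plants it can form from ascorbate, from glyoxylate made in photorespiration or in the glyoxylate cycle, and from oxaloacetate. Proposed routes of removal are oxidation, decarboxylation and a path through oxalyl-coenzyme A. According to the study, oxalate decarboxylase activity has not been shown in plants, and oxalate oxidase activity has not been found in spinach. In spinach leaf much of the oxalate is stored, in part as calcium oxalate crystals. The files give gene IDs without names, so names are used only for the 15 genes whose ID the study's text prints, and the leaf label could not be checked against defining genes. In leaf tissue, fewer cells of a type and less RNA per cell cannot be told apart.

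The weak and the abundant genes of these libraries did not sit at the same relative level. Between 20437334 and 25245734 fragments were assigned to genes in a leaf library, and median-of-ratios scaling, which sets the median gene level of the libraries equal, used factors of 1.07, 0.941 and 0.876 for PI175311 leaves 1 to 3 and 0.947, 1.22 and 0.984 for Bloomsdale leaves 1 to 3. As deposited, Bloomsdale leaf 2 stood apart, as the library farthest from its group's median for 53.6% of the tested genes. Bloomsdale leaves 1 and 3 were the farthest for 20.7 and 25.7%. No such count was made after scaling. The tested genes of Bloomsdale leaf 2 had a median of 11.0 FPKM, against 7.81 to 9.83 FPKM in the other 5 leaf libraries. It also had the most genes at 1 FPKM or more, 16710, and PI175311 leaf 3 the fewest, 15723. Bloomsdale leaf 2 decided the direction of several counts, which are given with and without it. After scaling, some counts turned without PI175311 leaf 2.

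**Figure D1:**
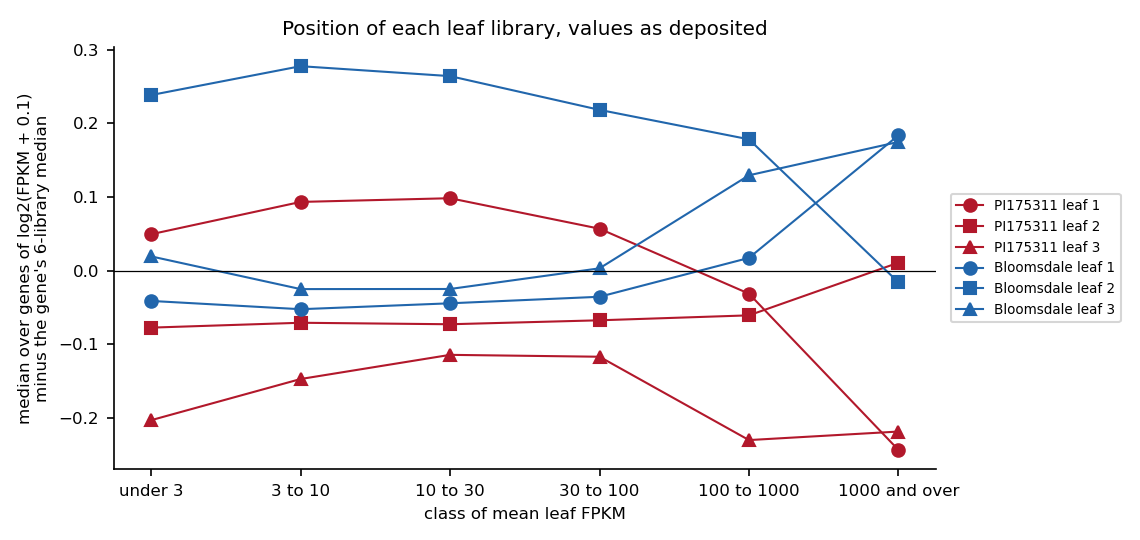
Median over genes of log2(FPKM + 0.1) minus the gene's median over the 6 leaf libraries (y axis), by class of mean leaf FPKM (x axis), one line for each library, values as deposited. Bloomsdale leaf 2 lies above the other 5 in all classes up to 1000 FPKM, and at -0.016 among the genes of 1000 FPKM and over.

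A few very abundant genes held a larger mean share of the total in PI175311, with tests that 3 against 3 libraries cannot carry under 0.10. The 106 genes with a mean leaf level of 1000 FPKM and over held 55.2, 60.2 and 61.6% of the summed FPKM in the PI175311 leaves and 56.6, 44.7 and 49.3% in the Bloomsdale leaves. The groups overlapped through Bloomsdale leaf 1, and the means of 58.96% ± 3.38 and 50.2% ± 5.98 (SD, n = 3) gave an exact permutation p of 0.20, 2-sided. Genes of 100 to 1000 FPKM held 17.7% ± 0.785 of the total in PI175311 and 22.5% ± 2.09 in Bloomsdale, without overlap (exact permutation p = 0.10, the smallest that 3 against 3 libraries allow). After adjustment over the 6 abundance classes each p was 0.30. Of the 10 most abundant leaf genes, 8 had the higher mean in PI175311, and none was called by limma (lowest adjusted p = 0.064).

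Of those 10 genes, 7 have IDs between Spo21968 and Spo21985, which was noticed after the values were seen. Together they made up 19.4, 24.3 and 27.6% of the summed FPKM in the PI175311 leaves and 15.3, 8.54 and 8.24% in the Bloomsdale leaves. All 3 PI175311 leaves were above all 3 Bloomsdale leaves, and Bloomsdale leaf 1 was the nearest to them (means of 23.7% ± 4.10 and 10.7% ± 3.97, SD, n = 3, exact permutation p = 0.10). That p is the smallest that 3 against 3 libraries allow. The genes were picked from the same values, so it is no support for a difference. Counted as fragments, without division by gene length, they made up 11.9% ± 2.37 and 5.08% ± 2.11 of the libraries (SD, n = 3). In root the same genes held 6.72, 1.58 and 10.6% of the FPKM in PI175311 and 0.925, 0.0976 and 1.05% in Bloomsdale. The files do not name these genes, and genes of near-identical sequence can share reads, so the level of each single one is uncertain.

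**Figure D2:**
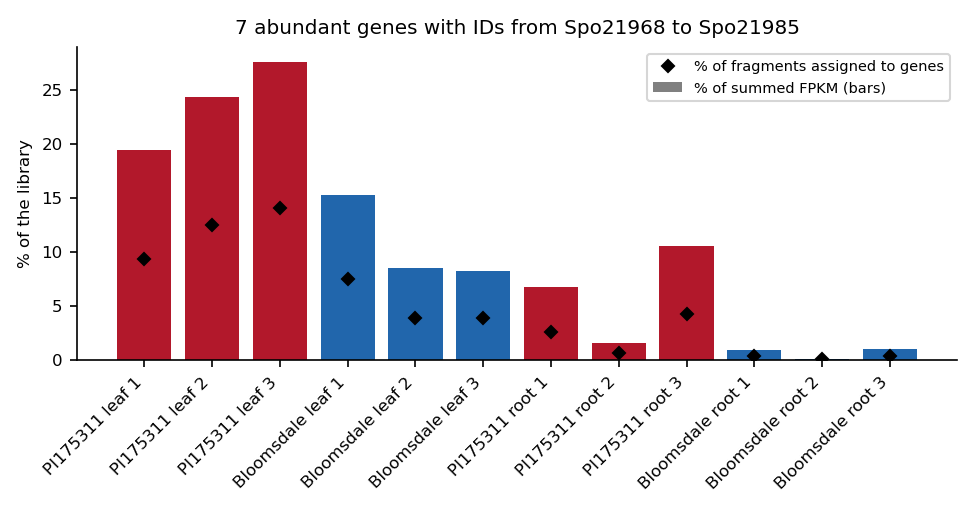
Percent of each library (y axis) held by 7 of the 10 most abundant leaf genes, with IDs between Spo21968 and Spo21985, in the 12 libraries (x axis). Bars give the percent of summed FPKM and diamonds the percent of fragments assigned to genes, with PI175311 in red and Bloomsdale in blue. Leaf bars run from 19.4 to 27.6% in PI175311 and from 8.24 to 15.3% in Bloomsdale.

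In the values as deposited, more genes were lower than higher in PI175311 leaf. With limma at an adjusted p under 0.05, 678 genes were higher and 1020 lower, together 10.1% of the tested genes (4.04% higher and 6.08% lower). After median-of-ratios scaling 954 were higher and 849 lower, together 10.8% (5.69% and 5.06%). The middle gene of the 16764 had a log2 fold change of -0.12 as deposited and -0.00067 after scaling, and higher genes were 39.9% of the calls before and 52.9% after. Removing only the 10 most abundant genes from the library totals, an alternative chosen after the values were seen, gave 793 higher and 862 lower genes (47.9% higher) and a median of -0.019.

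The scaling moved genes across the threshold. Of the higher genes, 655 were called both ways, which is 96.6% of the deposited and 68.7% of the scaled list, while 299 were called only after scaling and 23 only before. Of the lower genes, 772 were called both ways, 75.7% of the deposited and 90.9% of the scaled list, while 248 were called only as deposited and 77 only after scaling. No gene was higher in one and lower in the other, an outcome fixed in advance by the small shift. The median log2 fold change moved from -0.12 to -0.00067. The smallest absolute log2 fold change called as deposited was 0.74 for higher and 0.71 for lower genes. The PI175311 and Bloomsdale leaves did not overlap for 33.2% of the tested genes as deposited, 9.88% with PI175311 above and 23.4% with PI175311 below. After scaling this was 37.5%, almost evenly split into 19.2% and 18.2%.

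**Figure D3:**
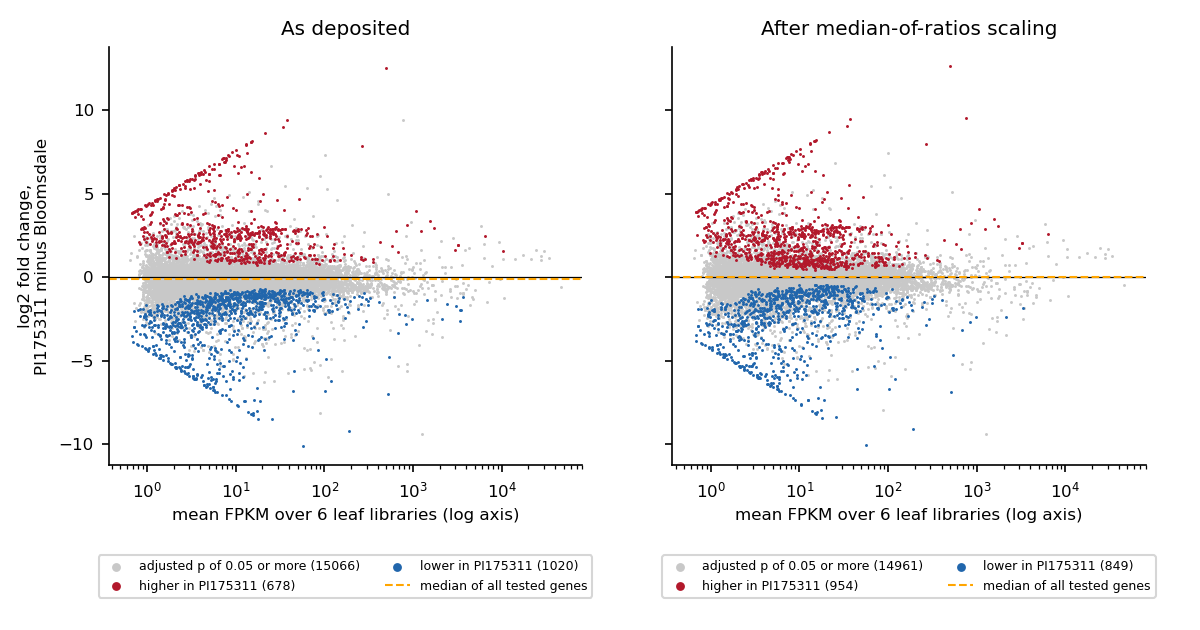
Log2 fold change, PI175311 minus Bloomsdale (y axis), against mean FPKM over the 6 leaf libraries (x axis, log scale), one point for each of the 16764 tested genes, as deposited (left) and after median-of-ratios scaling (right). Red and blue points are the 678 higher and 1020 lower genes on the left and the 954 higher and 849 lower genes on the right, and the dashed line is the median of all tested genes. The straight edges of points at low FPKM are genes at or near 0 in one genotype.

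Most called genes differed by more than 1 on the log2 scale. As deposited, the median absolute log2 fold change was 2.44 for higher and 1.97 for lower genes. As deposited 28 higher and 86 lower genes had an absolute log2 fold change under 1, and 128 and 174 reached 4. After scaling the medians were 1.97 and 1.96, with 181 higher and 139 lower genes under 1, and 138 and 166 at 4 or more. A large fold alone was not enough, since 1908 of the 3492 genes with an absolute log2 fold change of at least 1 were not called as deposited. Of the deposited calls, 204 higher and 288 lower genes were under 1 FPKM in all 3 libraries of the lower genotype, so they passed the expression rule only through the genotype in which they were high. Among the 14104 genes at 1 FPKM or more in all 6 leaf libraries, 363 were higher and 602 lower as deposited, and 613 and 488 after scaling.

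The number of calls depended on single libraries, and a fit without one library also has fewer samples. As deposited there were 343 higher and 671 lower genes without PI175311 leaf 1, 720 and 1460 without PI175311 leaf 2, 434 and 626 without PI175311 leaf 3, 441 and 485 without Bloomsdale leaf 1, 1074 and 911 without Bloomsdale leaf 2, and 512 and 593 without Bloomsdale leaf 3. Without Bloomsdale leaf 2, higher genes outnumbered lower ones also in the deposited values, and the median log2 fold change of all genes was -0.015. After scaling, the fits without PI175311 leaf 1 (373 higher, 405 lower), PI175311 leaf 3 (461 and 438), Bloomsdale leaf 1 (451 and 274) and Bloomsdale leaf 3 (558 and 360) held fewer calls, and the one without Bloomsdale leaf 2 held 1135 and 964. Lower genes outnumbered higher ones after scaling without PI175311 leaf 1, and without PI175311 leaf 2 (902 higher, 1166 lower). In all 6 such fits 327 of the 678 higher (48.2%) and 394 of the 1020 lower genes (38.6%) were called again as deposited, and 334 (35.0%) and 243 (28.6%) after scaling. Every called gene kept its sign in all 6 fits, which is not replication. Each fit reuses libraries that gave the call, and a gene whose groups do not overlap can hardly turn.

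Divided by mean leaf FPKM, calls were most frequent at both ends of the range as deposited, and only among the weakest genes after scaling. As deposited, 13.7% of the 3003 genes under 3 FPKM, 10.04% of the 5657 genes at 3 to 10, 8.62% of the 4963 at 10 to 30, 9.07% of the 2248 at 30 to 100, 9.02% of the 787 at 100 to 1000 and 16.0% of the 106 genes of 1000 FPKM and over were called. After scaling the shares were 13.3, 10.9, 10.1, 9.65, 7.88 and 9.43%, in the same order, against 10.8% of all tested genes. These counts are descriptions, with no test between classes. Replicates were also least alike at the ends, with a median pooled SD of 0.50 on the log2 scale under 3 FPKM, 0.29 at 10 to 30 FPKM and 0.54 at 1000 FPKM and over. In the top class 56.6% of the genes had an absolute log2 fold change of at least 1, against 20.8% of all tested genes.

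Scaling shifted the balance of higher and lower calls in the classes up to 100 FPKM. From 3 to 10 FPKM there were 218 higher and 350 lower genes as deposited and 311 and 304 after scaling. From 10 to 30 FPKM the counts went from 182 and 246 to 290 and 211, and from 30 to 100 FPKM from 73 and 131 to 119 and 98. Genes of 100 to 1000 FPKM stayed on the lower side, with 25 higher and 46 lower as deposited and 28 and 34 after scaling. Their median log2 fold change was -0.27 as deposited and -0.14 after scaling, away from the median of all genes under both. Under 3 FPKM, 171 higher and 239 lower genes became 198 and 200. Leaving out Bloomsdale leaf 2 turned the same balances in the deposited values, to 218 higher and 182 lower genes under 3 FPKM, 347 and 305 at 3 to 10, 314 and 231 at 10 to 30 and 137 and 125 at 30 to 100. Without PI175311 leaf 2 lower genes were the more frequent after scaling too under 3 FPKM (158 higher, 267 lower), at 3 to 10 (289 and 395) and at 30 to 100 FPKM (131 and 154).

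The most abundant leaf genes are given by their level in root, with no test between the parts. Of the 106 genes of 1000 FPKM and over, 45 also had a mean of 100 FPKM or more in root, and of these 7 were higher and 0 lower as deposited (6 and 0 after scaling), where 4.04% of all tested genes were higher and 6.08% lower as deposited. Their median log2 fold change was 1.09 as deposited and 1.21 after scaling, with 35 and 37 of the 45 above 0. All 7 abundant genes with IDs between Spo21968 and Spo21985 are among the 45, with log2 fold changes of 1.07 to 1.64 as deposited, none called. If these share reads, they do not count as separate genes. The other 61, under 100 FPKM in root, had 2 higher and 8 lower genes as deposited, 2 and 2 after scaling, and a median log2 fold change of -0.95 and -0.83.

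Each side of this pattern followed single libraries as well as genotype. For the 45 genes abundant in both tissues, the median deviation from the gene's level over the 6 libraries, after scaling, was 0.13, 0.20 and 0.68 in PI175311 leaves 1 to 3 and -0.047, -1.11 and -0.94 in Bloomsdale leaves 1 to 3. Bloomsdale leaf 1 was thus close to the PI175311 leaves. For the other 61 it was -0.68, 0.075 and -0.45 in PI175311 and 0.48, -0.12 and 0.81 in Bloomsdale, where PI175311 leaf 2 and Bloomsdale leaf 2 lay close together. As deposited, the class of 1000 FPKM and over held 9 higher and 8 lower genes. The lower count was 2 without PI175311 leaf 1, 23 without PI175311 leaf 2, 1 without PI175311 leaf 3, 1 without Bloomsdale leaf 1, 12 without Bloomsdale leaf 2 and 2 without Bloomsdale leaf 3. The higher count ran from 4 without PI175311 leaf 3 and 5 without PI175311 leaf 1 to 10 without Bloomsdale leaf 1.

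Genes weak in root were called in leaf most often, in a count that is not free of the leaf contrast itself. With the other genotype under 1 FPKM in all its leaves, 260 tested genes passed the expression rule through PI175311 and 382 through Bloomsdale. Shares by root level among only the genes at 1 FPKM or more in all 6 leaves were not computed. By mean root FPKM, 25% of the 248 tested genes under 0.1, 26.0% of the 811 at 0.1 to 1, 12.7% of the 6289 at 1 to 10, 6.43% of the 8341 at 10 to 100 and 8.19% of the 1075 genes of 100 FPKM and over were called as deposited, against 10.1% of all tested genes. After scaling the shares were 22.6, 23.4, 12.8, 7.84 and 8.93%, in the same order of the classes. As deposited, the median pooled SD on the log2 scale was 0.72 and 0.60 in the first 2 classes and 0.29 at 10 to 100 FPKM. The median absolute log2 fold change was 1.14 under 0.1 FPKM in root, 1.06 at 0.1 to 1 and 0.30 at 10 to 100. Genes that passed through 1 genotype alone are in these medians. Why the shares of called genes differ between the classes was not tested.

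The counts of higher and lower genes in the root classes were as follows, with no test between classes. Of the genes under 0.1 FPKM in root, 19 were higher and 43 lower in PI175311 leaf as deposited, and 21 and 35 after scaling. At 0.1 to 1 FPKM the counts were nearly even, with 103 higher and 108 lower as deposited and 106 and 84 after scaling. At 10 to 100 FPKM, where 172 were higher and 364 lower as deposited, 334 and 320 were called after scaling. Without Bloomsdale leaf 2 this class had 388 higher and 292 lower genes as deposited, and without PI175311 leaf 2 it had 332 and 456 after scaling, so a single library turned its balance under either scale. The 43 lower genes under 0.1 FPKM in root were 24 without Bloomsdale leaf 1 and 64 without PI175311 leaf 2, and between 29 and 39 without any other library. The 103 higher genes at 0.1 to 1 FPKM were 43 without PI175311 leaf 1, 57 without PI175311 leaf 3 and 63 without Bloomsdale leaf 1, and the 108 lower ones ran from 59 without Bloomsdale leaf 1 and 60 without PI175311 leaf 3 or Bloomsdale leaf 3 to 69 without PI175311 leaf 1 and 154 without PI175311 leaf 2.

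Within most classes of leaf abundance, genes weaker in root were called in a larger share, with no test between the parts. Among genes of 10 to 30 FPKM in leaf, 27.9% of the 61 under 0.1 FPKM in root, 23.4% of the 137 at 0.1 to 1, 19.9% of the 738 at 1 to 10, 5.67% of the 3932 at 10 to 100 and 9.47% of the 95 of 100 FPKM and over were called as deposited. Among genes of 10 to 100 FPKM in root the share changed less with leaf level, from 11.3% under 3 FPKM in leaf through 5.67 to 6.59% between 3 and 100 to 7.85% at 100 to 1000 FPKM and 15.4% of the 26 genes of 1000 FPKM and over. Genes at 0.1 to 1 FPKM in root had larger shares than these up to 1000 FPKM in leaf, between 16.7 and 34.4%, with both sets of shares as deposited. The rule did not hold everywhere, since 0 of the 6 such genes of 1000 FPKM and over in leaf were called, and of the 17 genes at 30 to 100 FPKM in leaf and under 0.1 in root 2 were called as deposited and 0 after scaling.

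Set by the ratio of mean leaf to mean root FPKM, classes chosen after the values were seen, the leaf-leaning genes held more lower calls in one class and more higher calls in the other. Of the 1085 genes with leaf at least 10 times root, 59 were higher (5.44%) and 168 lower (15.5%) in PI175311 leaf as deposited, and 64 and 121 after scaling. Of the 1788 genes with leaf 2 to 10 times root, 240 were higher (13.4%) and 141 lower (7.89%), and 261 and 112 after scaling. Of the 9562 genes within 2 times between the tissues, 264 were higher and 436 lower, and 433 and 389 after scaling. Without Bloomsdale leaf 2 the deposited counts turned to 491 higher and 357 lower, and without PI175311 leaf 2 the scaled ones to 422 and 491. Genes with root 2 to 10 times leaf (3898 genes, 98 higher and 250 lower) and at least 10 times leaf (431 genes, 17 and 25) were called in 8.93 and 9.74%, near the 10.1% of all tested genes. Without Bloomsdale leaf 2 they turned to 207 higher and 180 lower, and to 38 and 18.

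These shares were read under other settings and without single libraries. No setting freed the classes from the leaf contrast, since the leaf mean in the ratio takes in both genotypes. A gene high in leaf of 1 genotype alone can thus count as leaf-leaning. In both leaf-leaning classes the share of higher and the share of lower genes were above those of all tested genes in all 16 alternatives on the deposited values. After scaling this held in 13 of 13 alternatives, except for the higher share at 10 times root, which was above in 11. Without 1 library, lower genes in the class at 10 times root ran from 86 (7.93%) without Bloomsdale leaf 1, 96 without Bloomsdale leaf 3, 100 without PI175311 leaf 1 and 105 without PI175311 leaf 3 to 263 (24.2%) without PI175311 leaf 2. Higher genes at 2 to 10 times root ran from 117 (6.54%) without PI175311 leaf 1 to 251 (14.04%) without Bloomsdale leaf 2, and lower genes there from 69 without Bloomsdale leaf 1 to 203 without PI175311 leaf 2. The class medians moved with the libraries too. At 10 times root the median deviation after scaling was -0.31, 0.010 and -0.12 in the PI175311 leaves and 0.25, -0.10 and 0.35 in the Bloomsdale leaves, so that PI175311 leaf 2 lay above Bloomsdale leaf 2.

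**Figure D4:**
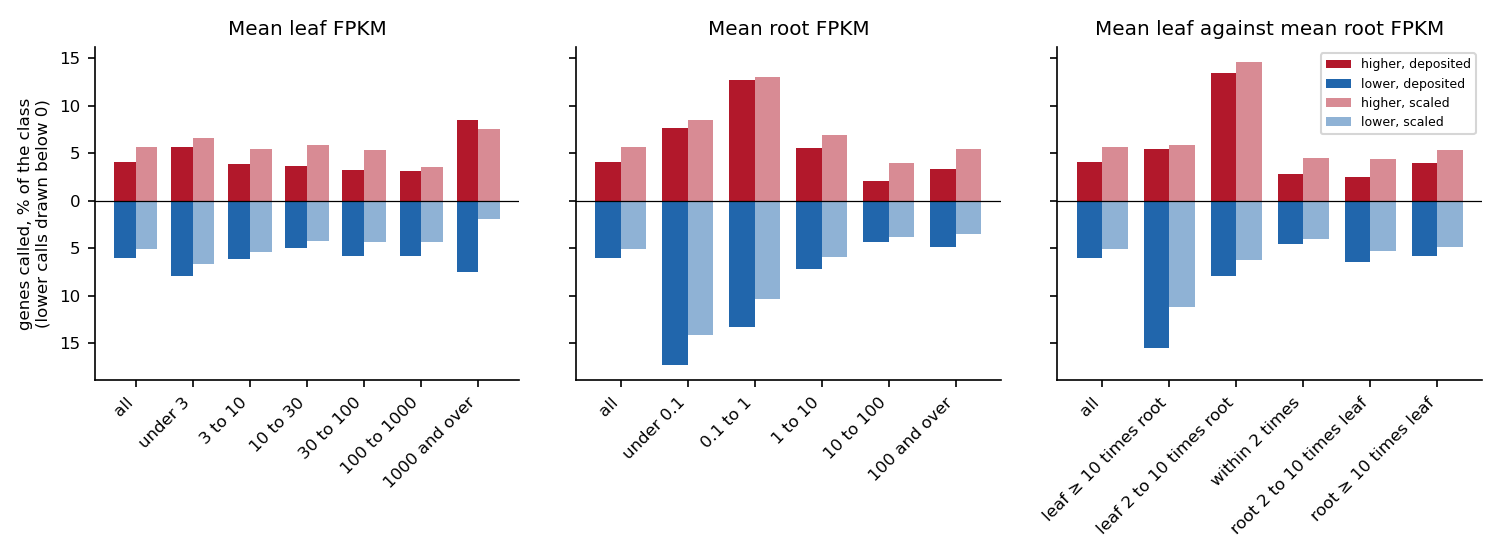
Percent of the tested genes of a class called higher (above 0) or lower (drawn below 0) in PI175311 leaf (y axis), by mean leaf FPKM, by mean root FPKM and by the ratio of leaf to root (x axes), as deposited (dark) and after scaling (light). Genes under 1 FPKM in root and genes with leaf at least 2 times root stand above the shares of all tested genes, 4.04% higher and 6.08% lower as deposited.

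Some calls were genes at 0 in every leaf of one genotype. Of the higher genes, 74 were at 0 in all 3 Bloomsdale leaves, with a mean in PI175311 leaf of 1.35 to 42.6 FPKM (median 5.20). In 44 of them the 3 Bloomsdale roots were at 0 as well, in 27 the roots were above 0 in some library and under 1 FPKM in all, and in 3 a root reached 1 FPKM. In PI175311 root, 49 of the 74 had 1 FPKM or more in all 3 libraries. Of the lower genes, 71 were at 0 in all 3 PI175311 leaves, with 1.38 to 114 FPKM in Bloomsdale leaf (median 5.40). Here the PI175311 roots were at 0 in 24, above 0 and under 1 FPKM in 21 and at 1 FPKM or more in some library in 26, and 67 of the 71 had 1 FPKM or more in all 3 Bloomsdale roots. All 145 entered the test only through the genotype in which they were high. Such a 0 is a statement about reads assigned to the gene model and gives no fold change.

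Of the 15 genes named in the study, 10 passed the expression rule, and 5 of these were higher and 0 lower in PI175311 leaf under both scalings, where 4.04% and 6.08% of all tested genes were higher and lower as deposited. The study chose most of the 15 with these libraries, so their direction is not independent evidence. One of the 5, Spo12360, passed the rule only through PI175311, where it was high. The median log2 fold change of the 10 was 1.20 as deposited and 1.32 after scaling.

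**Figure D5:**
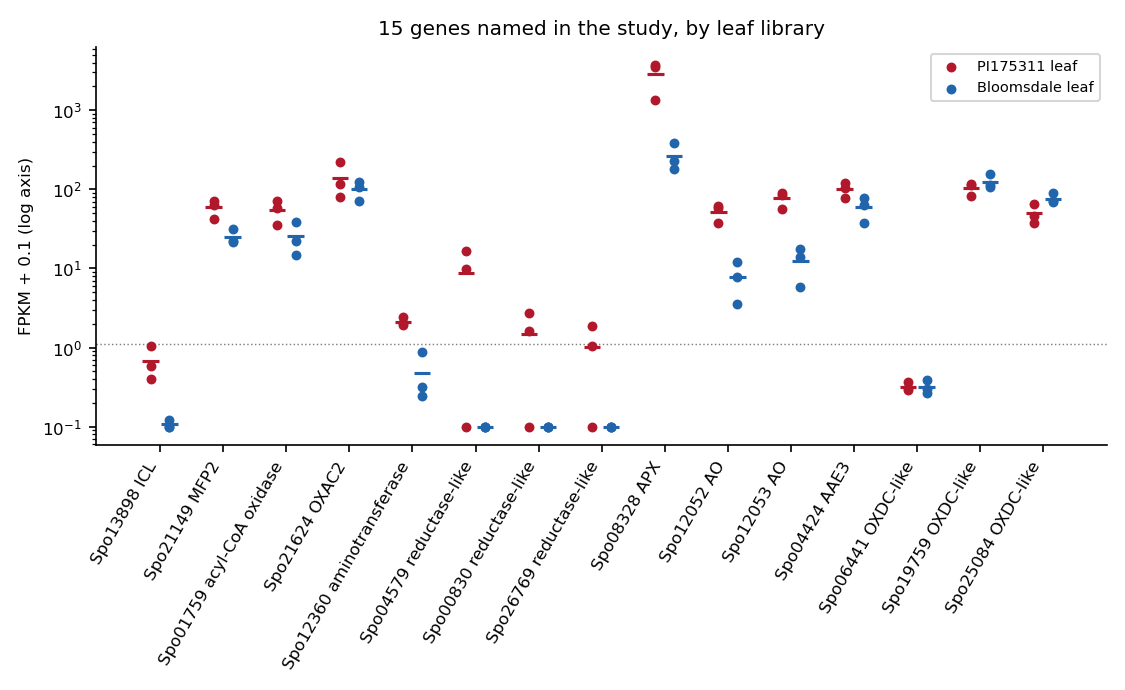
FPKM + 0.1 (y axis, log scale) of the 15 genes named in the study, grouped by role (x axis), in the 3 PI175311 leaves (red) and the 3 Bloomsdale leaves (blue), with the mean of each group as a bar and 1 FPKM as a dotted line. The ascorbate peroxidase and both ascorbate oxidases show every PI175311 leaf above every Bloomsdale leaf, as do 9.88% of all tested genes as deposited. The reductase-like genes are at 0 in PI175311 leaf 2 and in all Bloomsdale leaves.

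All 3 genes of ascorbate oxidation whose IDs the study prints were higher. The study prints them as upregulated, and other genes of this role could not be picked out. Ascorbate peroxidase (APX, Spo08328), which reduces hydrogen peroxide with ascorbate, had 3531, 1330 and 3723 FPKM in the PI175311 leaves and 386, 226 and 180 FPKM in the Bloomsdale leaves. The groups lay far apart, and PI175311 leaf 2 was low within its own. The log2 fold change was 3.37 (SE 0.47, limma adjusted p = 0.0044) as deposited and 3.50 (SE 0.52, adjusted p = 0.012) after scaling. Without PI175311 leaf 1 the scaled value was 3.36 with an adjusted p of 0.052, in a range of 0.0053 to 0.052 over 13 alternatives. APX was also abundant in root, at 897, 984 and 2026 FPKM in PI175311 and 238, 99.8 and 418 FPKM in Bloomsdale, and the difference in leaf was not shown to differ from that in root (limma interaction 0.88, adjusted p = 0.65), a term called for 2.26% of the genes tested for it as deposited and 2.46% after scaling. It is among the 7 higher genes abundant in both tissues.

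Ascorbate oxidase (AO) oxidizes ascorbate in the cell wall space. AO gene Spo12052 had 60.8, 58.6 and 37.3 FPKM in the PI175311 leaves and 3.48, 7.74 and 12.0 FPKM in the Bloomsdale leaves. AO gene Spo12053 had 89.9, 83.6 and 56.1 FPKM against 5.65, 13.7 and 17.6 FPKM. Both were higher in every PI175311 leaf, lowest in PI175311 leaf 3 and Bloomsdale leaf 1, and the 2 genes followed each other from library to library. Log2 fold changes were 2.87 (SE 0.45, limma adjusted p = 0.0086) and 2.74 (SE 0.43, adjusted p = 0.0085) as deposited, and 3.00 and 2.87 after scaling (adjusted p = 0.011 and 0.0097). They have consecutive IDs, and if their sequences are alike, reads may be shared between them. In root they were low, with 0.70 to 13.9 and 0.85 to 24.6 FPKM in the PI175311 roots and 1.80 to 4.43 and 2.62 to 6.96 FPKM in the Bloomsdale roots, which places them among the genes with leaf above root. In 1 fit over all 12 libraries the adjusted p as deposited was 0.054 for Spo12052 and 0.081 for Spo12053, with the same fold changes, and 0.066 for Spo12053 after scaling, while the other 15 alternatives on the deposited values stayed under 0.05, in ranges from 0.0021 for Spo12052 and 0.0022 for Spo12053.

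Of the genes around the glyoxylate cycle, the fatty acid oxidation gene MFP2 (Spo21149), whose multifunctional protein carries out middle steps of peroxisomal beta-oxidation, was higher. It had 71.5, 42.5 and 62.9 FPKM in the PI175311 leaves and 21.4, 31.1 and 21.9 FPKM in the Bloomsdale leaves. The groups did not overlap, with PI175311 above, as for 9.88% of all tested genes as deposited. The log2 fold change was 1.24 (SE 0.26, limma adjusted p = 0.023) as deposited and 1.36 (SE 0.20, adjusted p = 0.012) after scaling. The call as deposited was lost without PI175311 leaf 1 (adjusted p = 0.084), PI175311 leaf 3 (0.076), Bloomsdale leaf 1 (0.091) and Bloomsdale leaf 3 (0.059), and ranged from 0.0079 to 0.091 over 16 alternatives. After scaling, of the fits without 1 library, it was lost without PI175311 leaf 1 (adjusted p = 0.052) and Bloomsdale leaf 1 (0.060). The acyl-coenzyme A oxidase gene Spo01759, for the first step of beta-oxidation, had 71.1, 35.2 and 58.6 FPKM against 22.4, 39.0 and 14.7 FPKM. PI175311 leaf 2 and Bloomsdale leaf 2 overlapped, and the log2 fold change of 1.17 (SE 0.40) was not called (limma adjusted p = 0.11). It was called without PI175311 leaf 2 (adjusted p = 0.048) and without Bloomsdale leaf 2 (0.041), in a range of 0.041 to 0.28 over 16 alternatives. After scaling the groups did not overlap, with PI175311 above, as for 19.2% of all tested genes (log2 fold change 1.29, SE 0.35, limma adjusted p = 0.069). The gene was then called without the same libraries (0.044 and 0.048) and with all of them in 1 fit over 12 libraries (0.024).

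Isocitrate lyase (ICL, Spo13898), which splits isocitrate into glyoxylate and succinate, lay under the expression rule in leaf. It had 0.940, 0.300 and 0.487 FPKM in the PI175311 leaves and 0, 0 and 0.0197 FPKM in the Bloomsdale leaves. These values stand for 47, 14 and 27 fragments against 0, 0 and 1, a ratio of 85.7 per assigned fragment with a 95% exact interval from 14.98 to 3421, which covers counting error only. In an alternative with no expression rule its log2 fold change was 2.56 (limma adjusted p = 0.014). Root held more, with 4.82, 6.32 and 6.57 FPKM in PI175311 and 5.91, 15.1 and 18.7 FPKM in Bloomsdale. In leaf PI175311 was the higher genotype, and in root 2 of 3 Bloomsdale libraries were above every PI175311 library.

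The putative oxaloacetate acetylhydrolase OXAC2 (Spo21624), an enzyme type that splits oxaloacetate into oxalate and acetate in fungi, did not separate the genotypes. Its leaf values were 80.1, 220 and 118 FPKM in PI175311 and 108, 71.6 and 125 FPKM in Bloomsdale. Only PI175311 leaf 2 stood above the Bloomsdale leaves, and the log2 fold change of 0.37 (SE 0.39, limma adjusted p = 0.59) was -0.020 (adjusted p = 0.98) without that library, in a range of 0.30 to 0.98 over 16 alternatives. Leaf levels were well above root levels, which were 6.47 to 10.3 FPKM in PI175311 and 0.946 to 6.11 FPKM in Bloomsdale.

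The study prints the IDs of 4 genes that remove glyoxylate, and others of this role could not be picked out. Of the 4, 1 passed the rule in leaf. The putative mitochondrial alanine-glyoxylate aminotransferase Spo12360, which makes glycine from glyoxylate, had 2.31, 1.92 and 1.84 FPKM in the PI175311 leaves and 0.221, 0.774 and 0.145 FPKM in the Bloomsdale leaves. It passed the rule through PI175311 alone. The log2 fold change was 2.37 (SE 0.56, limma adjusted p = 0.034) as deposited and 2.49 (SE 0.47, adjusted p = 0.025) after scaling. The call as deposited was lost with a pseudocount of 0.01 (adjusted p = 0.052), without PI175311 leaf 1 (0.11), PI175311 leaf 3 (0.091), Bloomsdale leaf 1 (0.11) and Bloomsdale leaf 3 (0.080), and ranged from 0.0049 to 0.11 over 15 alternatives. After scaling it remained only without Bloomsdale leaf 2 among the fits without 1 library, with an adjusted p of 0.052 to 0.095 without each of the others. Root levels were 23.8 to 44.1 FPKM in PI175311 and 26.1 to 36.2 FPKM in Bloomsdale, and overlapped.

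The glyoxylate/succinic semialdehyde reductase-like genes, of a family that reduces glyoxylate to glycolate, were on or off together. Spo04579, called truncated in the study, had 16.4, 0 and 9.64 FPKM in the PI175311 leaves and 0 in every Bloomsdale leaf. Spo00830, also called truncated, had 2.66, 0 and 1.53 FPKM, and Spo26769 had 1.78, 0 and 0.943 FPKM, again with 0 in every Bloomsdale leaf. PI175311 leaves 1 and 3 thus held all of their leaf fragments, 83 and 54 for Spo04579, 25 and 16 for Spo00830 and 34 and 20 for Spo26769. None of the 3 passed the rule, and in a fit with no rule none was called (lowest limma adjusted p = 0.15). In PI175311 roots 1 and 2 the same genes had 1.34 to 26.1 FPKM, while root 3 had 0, 0 and 0.106 FPKM. The PI175311 libraries thus divided into on and off among themselves in both tissues.

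Of the 4 genes of oxalate degradation whose IDs the study prints, 3 were tested and none was called. Acyl-activating enzyme 3 (AAE3, Spo04424), which joins oxalate to coenzyme A, had 105, 77.0 and 121 FPKM in the PI175311 leaves and 63.6, 78.0 and 37.9 FPKM in the Bloomsdale leaves. The groups met at PI175311 leaf 2 and Bloomsdale leaf 2 (log2 fold change 0.79, SE 0.31, limma adjusted p = 0.14). After scaling they no longer overlapped, with PI175311 above, as for 19.2% of all tested genes. The log2 fold change was then 0.92 (SE 0.30, limma adjusted p = 0.0995). The scaled value passed only in 1 fit over all 12 libraries (adjusted p = 0.043), in a range of 0.043 to 0.24 over 13 alternatives. The study reports AAE3 as significantly higher by qPCR in leaf and root of PI175311, and as a trend in its own RNA sequencing test.

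The oxalate decarboxylase-like genes were level or lower in PI175311 without passing the test. By the study's account they share little homology with fungal decarboxylases, and their function is not established. Spo25084 had 46.3, 65.7 and 37.3 FPKM in the PI175311 leaves and 69.7, 70.2 and 89.1 FPKM in the Bloomsdale leaves. All PI175311 leaves were below all Bloomsdale leaves as deposited, as for 23.4% of all tested genes, and the groups overlapped after scaling (log2 fold change -0.65, SE 0.25, limma adjusted p = 0.14, and -0.52 with 0.23 after scaling). Spo19759 had 113, 81.7 and 116 FPKM against 112, 157 and 106 FPKM, with a log2 fold change of -0.27 (SE 0.25, adjusted p = 0.53) as deposited. After scaling it was -0.15 (adjusted p = 0.63), and 0.0067 (adjusted p = 0.98) without PI175311 leaf 2, in a range of 0.39 to 0.98 over 13 alternatives. Spo06441 stayed between 0.166 and 0.291 FPKM in all 6 leaves and was not tested.

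Among genes present at 1 FPKM or more in all 6 leaves, called the same way under both scalings and without overlap, the 2 with the largest rise and the 2 with the largest fall carry IDs that the sources used here do not name. Spo14226 had 60.1, 56.8 and 51.7 FPKM in the PI175311 leaves and 2.11, 3.25 and 1.43 FPKM in the Bloomsdale leaves. Its replicates were close together, and the log2 fold change was 4.65 (SE 0.29, limma adjusted p = 6.53e-05) as deposited and 4.77 after scaling. PI175311 was also the higher genotype in root, with 9.99, 28.0 and 33.0 FPKM against 1.95, 1.11 and 0.886 FPKM. Spo05145 had 90.2, 63.8 and 144 FPKM against 6.11, 1.13 and 5.99 FPKM in leaf (log2 fold change 4.71, SE 0.70, adjusted p = 0.011). Its root values were high in both genotypes and overlapped, at 260, 468 and 145 FPKM in PI175311 and 169, 233 and 168 FPKM in Bloomsdale. After scaling its leaf call was lost without PI175311 leaf 1 (adjusted p = 0.055) and PI175311 leaf 3 (0.056), in a range of 0.0016 to 0.056 over 13 alternatives.

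Of the lower genes, Spo23861 had 4.77, 14.4 and 2.70 FPKM in the PI175311 leaves and 2121, 298 and 653 FPKM in the Bloomsdale leaves. The genotypes were far apart although the Bloomsdale leaves varied widely, with a log2 fold change of -7.00 (SE 0.91, limma adjusted p = 0.0095). Without Bloomsdale leaf 3 the adjusted p was 0.080, in a range of 0.00043 to 0.14 over 16 alternatives. Roots held 108, 38.3 and 161 FPKM in PI175311 and 1172, 360 and 640 FPKM in Bloomsdale. Spo21697 had 1.76, 1.76 and 8.24 FPKM against 205, 180 and 315 FPKM in leaf (log2 fold change -6.21, SE 0.62, adjusted p = 0.0023). It was low in every root, from 0 to 5.64 FPKM, and counts among the genes with leaf at least 10 times root through Bloomsdale. There the means were 234 FPKM in leaf and 2.59 in root, against 3.92 and 1.81 FPKM in PI175311. The leaf difference itself thus places it in that class.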

How the data were processed

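The table held FPKM of 25495 genes, which the authors deposited for leaf laminae and roots of PI175311 and Bloomsdale, 3 libraries each. The study's methods name TopHat, HTSeq and DESeq, the submitters' processing notes fastp, HISAT2 2.1.0, featureCounts and DESeq2. Which made the deposited FPKM, and the genome build, are not given in the sources used here. FPKM are relative to the library total, so a few abundant genes can lower all others.

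Whole fragments behind the FPKM were solved for 21552 of 21554 genes above 0 in at least 6 libraries, at a tolerance of 0.0001 fragments plus 2e-08 of their number, and 38 of 2000 genes had a solution after the totals were altered. Leaves were compared with limma 3.58.1 (R 4.3.3, trend and robust) on log2(FPKM + 0.1), which understates changes of low genes, with Benjamini-Hochberg adjustment over the 16764 tested genes. Scaling divided FPKM by median-of-ratios factors from the genes above 0 in all 6 leaves. The interaction with root came from 1 limma fit over 12 libraries. Single values were compared with 2-sided exact permutation tests (Python 3.11.15, numpy 2.4.6, scipy 1.17.1, pandas 2.3.3, with matplotlib 3.10.9 for plots). The limma fit was tested on simulated data. The labels do not tie each library to a plant, so p-values measure the spread between libraries.

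Members, gene lists and classes were chosen with earlier results of these data known. Named genes were the 15 whose ID the study's text prints, and, in each direction, the 2 of largest change among those called both ways, at 1 FPKM or more in all 6 leaves and without overlap. Alternatives were other pseudocounts and filters, quantile normalization, limma-voom on the fragments, limma without its options, 1 fit over 12 libraries, replicate number as a block, each library left out, and, after the values were seen, totals without the 10 most abundant genes and the classes by ratio. The RefSeq table (BTI_SOV_V1, 39719 genes) holds none of the IDs, so no other gene is named.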

Additional observations from a re-analysis of the deposited data

Results flagged for a closer look

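For 2 of the named genes limma's interaction term, the difference between the genotypes in leaf minus that in root, was called as deposited. It was called for 2.26% of the 19549 genes tested over 12 libraries. For ICL (Spo13898) the difference in leaf exceeded that in root by 3.56 on the log2 scale (limma adjusted p = 0.024, and 0.021 after scaling). ICL was higher in PI175311 leaf at 0.940 FPKM or less, on 88 fragments against 1. Its Bloomsdale leaves were at 0, 0 and 0.0197 FPKM, where the 0.1 added to each FPKM sets much of the size. No other pseudocount was tried for the interaction. For Spo05145 the leaf difference exceeded the root difference by 4.24 (limma adjusted p = 0.033, and 0.054 after scaling), so the call was lost after scaling. The study named ICL from these libraries, and Spo05145 was chosen for its large leaf difference, so neither value is independent evidence.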

How the results depend on the processing

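Several settings changed a count of called genes by over 1.5 times. With a mean of at least 5 FPKM in place of the filter, which left 11646 genes, 402 genes were higher and 586 lower as deposited, and 551 and 438 after scaling. Quantile normalization gave 1026 higher and 866 lower genes, and 1 fit over all 12 libraries 764 and 1614 as deposited and 1265 and 1345 after scaling. Leaving out 1 library gave 343 to 1074 higher and 485 to 1460 lower genes as deposited, and 373 to 1135 and 274 to 1166 after scaling. Replicate number as a block gave 745 higher and 1268 lower genes as deposited and 321 and 303 after scaling. Replicate numbers were not read as a pairing, since deviations of same-numbered leaves had correlations of 0.056, -0.203 and -0.198 across genes. Limma-voom on the recovered fragments gave 986 higher and 889 lower genes, a balance unlike the deposited one, while no filter (815 and 1187) and a pseudocount of 1 (791 and 1265) changed the deposited counts by less than 1.5 times. With the block, the adjusted p after scaling was 0.065 for Spo21149 and 0.082 for Spo12360, and as deposited 0.14 for Spo23861. Of the named genes, 2 turned direction, both without PI175311 leaf 2 and neither called: Spo21624 to -0.020 as deposited (range without 1 library -0.020 to 0.71), and Spo19759 to 0.0067 after scaling (range -0.29 to 0.0067). In the other comparisons of a named gene with its alternatives, 387 kept their direction and side of the threshold, 27 lost the call and 6 gained it. The cause of these changes was not tested. ICL and the reductase-like genes rest on at most 83 fragments in a leaf library.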
